A study of Sus scrofa with 8 samples.

Results

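miR-27b-3p and the small RNAs that share its 5′ end were followed through 8 libraries of porcine milk exosomes. Exosomes are small membrane vesicles that cells release into milk and other body fluids. The members were all inserts of 18 to 26 nt, that is reads with the 3′ adaptor removed, whose nt 1 to 8 were those of miR-27b-3p. They comprised 416 distinct sequences (tags) with 84296 counts, out of 1697899 distinct tags with 31566921 counts in that length range. Tags that matched nt 1 to 20 of miR-27b-3p were called miR-27b-3p, which gave 47 tags with 78472 counts (93.1% of the members' counts). Tags with the single difference T19C, counted from the 5′ end, were called the miR-27a type and comprised 31 tags with 1574 counts (1.87%). T19C is the difference by which miR-27a-3p is known to depart from miR-27b-3p, but no pig miR-27a sequence was used here, so the name rests on this base alone. A further 165 tags with 3558 counts (4.22%) carried 1 other difference at nt 9 to 20. Of the remainder, 97 tags with 248 counts carried 2 differences and 41 tags with 59 counts carried 3 or more. Tags of 18 or 19 nt, too short for the match, numbered 5 with 323 counts where they shared nt 1 to 18 with miR-27b-3p, and 23 with 38 counts where they did not. The last 7 tags, with 24 counts, held an undetermined base.

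The milk came from 3 healthy Yorkshire sows at their second birth, with no treatment. At 0 days after birth each sow gave a library of its own (0d-1, 0d-2 and 0d-3). For the stages of 3, 7, 14, 21 and 28 days, RNA of the 3 sows was pooled in equal amounts into 1 library each (3d, 7d, 14d, 21d and 28d), so that these stages hold no spread between animals. The study treats 0 and 3 days as colostrum, the first milk, and 7 to 28 days as mature milk, which gave 4 libraries against 4. Vesicles were collected by precipitation from milk freed of fat, cells and debris. In such a bulk sample more vesicles with a miRNA and more copies per vesicle cannot be told apart.

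A microRNA (miRNA) pairs with target mRNAs mainly through its seed, nt 2 to 8 from the 5′ end, and lowers the output of those mRNAs. miR-27a and miR-27b share their seed and are known to act on overlapping targets, among them regulators of fat cell formation and lipid metabolism such as PPARG. Each is cut from a hairpin in a cluster with members of the miR-23 and miR-24 families. In the RefSeq gene table of the pig assembly Sscrofa11.1, MIR27B lay within 1 kb of MIR23B and MIR24-2, and MIR27A lay within 1 kb of MIR24-1 and MIR23A. Levels of the cluster partners were not analysed here.

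The pair of sequences on which the results turn is shown with the seed in capitals, together with nt 19, where they differ.
miR-27b-3p: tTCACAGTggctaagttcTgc
miR-27a type: tTCACAGTggctaagttcCgc
The first was read 65745 times as a whole insert, 54864 of them in 0d-3, and the other 656 times, 505 of them in 0d-3. The most counted end variants are shown because the length results rest on them, with the seed and every base past nt 20 in capitals.
miR-27b-3p, end variant: tTCACAGTggctaagttctgCA
miR-27b-3p, end variant: tTCACAGTggctaagttctgA
miR-27b-3p, end variant: tTCACAGTggctaagttctgCT
miR-27b-3p, end variant: tTCACAGTggctaagttctgCAA
miR-27b-3p, end variant: tTCACAGTggctaagttctg
miR-27a type, end variant: tTCACAGTggctaagttccg
miR-27a type, end variant: tTCACAGTggctaagttccgCT
miR-27a type, end variant: tTCACAGTggctaagttccgT
In the order shown, the end variants of miR-27b-3p had 5475, 1824, 1706, 1085 and 1002 counts, and those of the miR-27a type had 422, 160 and 120. The most counted tag with another single difference, T16G, is shown with the seed and nt 16 in capitals.
tag with T16G: tTCACAGTggctaagGtctgc
This tag had 1248 counts, 1121 of them in 0d-3.

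The library 0d-3 stood apart from the other 7 and held 70307 of the 84296 counts of the members (83.4%). It had 13913018 inserts of 18 to 26 nt, against 836780 to 4453033 in the other libraries. In the others a large share of inserts began with 1 of 4 leaders, which are the 4 most frequent inserts of 5 nt. The share of inserts with a leader was 68.2% in 0d-1, 68.0% in 0d-2, 73.1% at 3d, 54.4% at 7d, 67.7% at 14d, 41.8% at 21d and 61.2% at 28d. In 0d-3 this share was 0.105%. miR-148a-3p, an abundant milk miRNA, took 62.8 to 75.2% of the counts of 13 miRNAs listed in the study in the 7 libraries and 0.105% in 0d-3. The origin of the leaders was not tested, and the main comparisons of milk classes are given with and without 0d-3. Some alternative settings and single tags are given with it alone. The labels and methods describe 0d-3 as a replicate of 0 days from 1 sow, made like the others, while its leaders and its miR-148a-3p set it apart. What set it apart was not tested, so that the spread among the 3 libraries of 0 days may not be one between sows alone. The read length was 36 nt at 7d and 21d and 40 nt in the other 6 libraries.

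miR-27b-3p was detected in every library. In colostrum it had 2166 counts in 0d-1, 3173 in 0d-2, 65669 in 0d-3 and 768 at 3d. In counts per 1000000 inserts of 18 to 26 nt (CPM) these were 656, 713, 4720 and 463. In mature milk it had 840 counts at 7d, 1610 at 14d, 1546 at 21d and 2700 at 28d, or 1004, 662, 1177 and 737 CPM. The high value was that of 0d-3, the low value that of 3d, and the range of colostrum enclosed all 4 mature milk libraries. From highest to lowest the order was 0d-3, 21d, 7d, 28d, 0d-2, 14d, 0d-1 and 3d. The 95% Wilson intervals of neighbours overlapped for 28d and 0d-2, for 0d-2 and 14d, and for 14d and 0d-1. The widest interval relative to its value, at 3d, ran from 432 to 497 CPM. The reads carried no molecular identifiers and may be PCR copies of 1 molecule, so that the intervals cover counting error only.

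The 3 libraries of 0 days gave 2030 ± 2330 CPM (SD, n = 3), and 684 ± 39.8 (SD, n = 2) without 0d-3. Colostrum gave 1638 ± 2057 (SD, n = 4) and mature milk 895 ± 238 (SD, n = 4), a log2 ratio of means of 0.87. The two-sided exact permutation test over 70 assignments gave p = 0.971, with 0.0286 as the smallest p that 4 libraries against 4 allow (adjusted p = 0.971 over 3 comparisons). Without 0d-3, colostrum gave 611 ± 131 (SD, n = 3) and the log2 ratio was -0.55 (exact permutation p = 0.114). On this scale the direction of the difference thus rested on 1 library. The libraries of mature milk are different stages of pooled RNA, so that their spread is one of stages and libraries. Colostrum mixes libraries of single sows with a pool, and both classes came from the same 3 sows. The libraries are thus not independent, and the p-values of these tests do not measure a spread between animals.

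**Figure D1:**
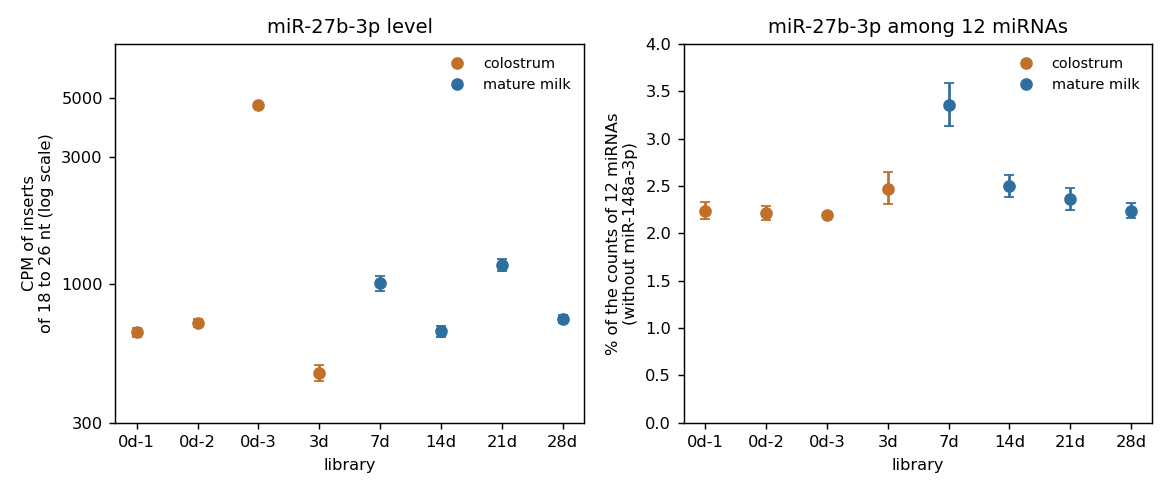
Left, miR-27b-3p in CPM of the inserts of 18 to 26 nt in each library, on a log scale. Right, miR-27b-3p as a percentage of 12 miRNAs, those listed in the study without miR-148a-3p. Points are single libraries and bars are 95% Wilson intervals. 0d-3 is highest on the left at 4720 CPM and lowest on the right at 2.20%, and 7d is highest on the right at 3.35%.

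The position of 0d-3 depended on the total to which miR-27b-3p was referred. With inserts that began with a leader taken out of the total, colostrum had 2063 CPM in 0d-1, 2225 in 0d-2, 4725 in 0d-3 and 1723 at 3d. Mature milk had 2200 at 7d, 2050 at 14d, 2022 at 21d and 1899 at 28d on this scale. The 7 libraries other than 0d-3 then ranged from 1723 to 2225, with a mean of 2026 ± 173 (SD, n = 7), where the mean on the first scale was 773 ± 239. As a share of 12 miRNAs, those listed in the study without miR-148a-3p, miR-27b-3p took 2.24% in 0d-1, 2.22% in 0d-2, 2.20% in 0d-3 and 2.47% at 3d. The corresponding shares in mature milk were 3.35% at 7d, 2.50% at 14d, 2.36% at 21d and 2.24% at 28d. On this scale the 3 libraries of 0 days differed little, at 2.22% ± 0.0207 (SD, n = 3), and 7d was the high library. Colostrum had 2.28% ± 0.129 and mature milk 2.61% ± 0.504 (SD, n = 4 each), a log2 ratio of -0.20 (exact permutation p = 0.171), and the groups overlapped.

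Among the 13 miRNAs, miR-27b-3p ranked 10 in 0d-3 and between 11 and 13 in the other libraries. Among all inserts grouped by their first 20 nt it ranked 27 in 0d-3 and between 66 and 141 in the others. With leader-bearing groups removed, its rank was 27 in 0d-3 and 29 to 43 in the others. Markers of epithelium, the secretory cell layer of the udder, were available for 2 of 6 names, miR-200c-3p and miR-375-3p. miR-200c-3p had 32174 CPM in 0d-3 and 1030 to 2513 in the other 7 libraries. miR-375-3p had 4683 CPM in 0d-3 and 470 to 1128 in the others. In CPM both were thus highest in 0d-3, as was miR-27b-3p. Relative to the 12 miRNAs without miR-148a-3p, only miR-200c-3p was highest there. It had 447640 of 2988982 counts in 0d-3 and 3723 of 64466 at 14d. miR-375-3p had 65156 of these counts in 0d-3 and 1902 at 14d, a larger share at 14d. Its share was also larger at 3d, 7d and 21d than in 0d-3, and smaller in 0d-1, 0d-2 and 28d. The part of these markers in the level of miR-27b-3p was not tested. The 12 markers listed for blood cells, muscle and liver were not analysed here.

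The miRNAs whose pattern over the libraries was most like that of miR-27b-3p were sought among the other 12. Likeness was the root mean square distance of log2 CPM after centring each miRNA over the libraries, where 0 is an identical pattern. Over 8 libraries the nearest were miR-574-3p at 0.11, miR-375-3p at 0.19 and let-7a-1-5p at 0.25, and the farthest was miR-148a-3p at 3.56. Over the 7 libraries without 0d-3 the nearest were miR-574-3p at 0.086, miR-25-3p at 0.11 and miR-148a-3p at 0.17, and the farthest was miR-21-5p at 0.50. miR-148a-3p was therefore the least similar with 0d-3 included and among the 3 most similar without it, while miR-574-3p was nearest both times.

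In the edgeR quasi-likelihood test across 11665 units of colostrum against mature milk, a unit being all inserts of 20 nt or more with the same first 20 nt, 0 units (0%) passed an adjusted p of 0.05. An unadjusted p under 0.05 was reached by 158 units, and DESeq2 called 13 units, all lower in colostrum. DESeq2 gave miR-27b-3p a log2 fold change of 1.59 but no p-value. The common dispersion in edgeR, a measure of the spread between libraries of a class, was high at 1.465. The lack of calls therefore does not show a lack of differences. Only 4 units of the members passed the filter on low counts, which were miR-27b-3p, the miR-27a type and the tags with T16G and C18T. miR-27b-3p had a log2 fold change of 1.97 (SE 1.79, edgeR adjusted p = 0.994) and the miR-27a type one of 0.85 (SE 1.60, edgeR adjusted p = 0.994). With library-size normalization in place of TMM, which gave 0d-3 a factor of 0.356, these were 0.60 and -0.59. The T16G and C18T units had log2 fold changes of 2.89 (SE 1.66) and -0.64 (SE 1.51). Without 0d-3 the log2 fold change of miR-27b-3p was -0.37 and that of the miR-27a type -1.45, and 0 of 11860 units were called, with 1669 at an unadjusted p under 0.05.

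The miR-27a type was rare among free copies, those in which the insert began with the miRNA itself. In colostrum it had 25 counts in 0d-1, 24 in 0d-2, 1247 in 0d-3 and 26 at 3d. Per 100 counts of miR-27b-3p these were 1.15, 0.756, 1.90 and 3.39. In mature milk it had 49 counts at 7d, 47 at 14d, 61 at 21d and 95 at 28d, or 5.83, 2.92, 3.95 and 3.52 per 100. The 3 libraries of 0 days were below all others, and 3d lay within the range of mature milk. The ratio does not depend on the library total. Its geometric mean was 1.54 per 100 in colostrum and 3.92 per 100 in mature milk, a difference of -1.35 on the log2 scale (exact permutation p = 0.0571, two-sided, adjusted p = 0.171). The difference did not pass the threshold of 0.05. Without 0d-3 it was -1.45 (exact permutation p = 0.114, where 3 libraries against 4 allow no p below 0.0571). Among free copies it had the same sign as each library was left out, from -1.73 to -1.01, but not when copies behind leaders, described further on, were added and 0d-3 was left out.

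Free counts of the miR-27a type were set beside those of the other single differences. There were 36 possible single differences from miR-27b-3p at nt 9 to 20. T19C was the most counted of them at 3d, 7d, 14d, 21d and 28d, ranked 2 in 0d-1 and 0d-3, and ranked 3 in 0d-2. In 0d-1 its 25 counts stood beside 28 of C18T, and in 0d-2 its 24 counts stood beside 42 of C18T and 29 of T16G. In 0d-3 its 1247 counts stood beside 1289 of T16G. The median count of the other 35 differences was 19 in 0d-3, 1 at 28d and 0 elsewhere. In the later libraries its counts stood beside those of the next difference as 26 and 12 at 3d, 49 and 20 at 7d, 47 and 6 at 14d, 61 and 50 at 21d, and 95 and 89 at 28d. At 0 days the free miR-27a type was thus no more frequent than the largest of the other single differences, and at 21d and 28d it was above C18T by a margin that counting error could give.

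**Figure D2:**
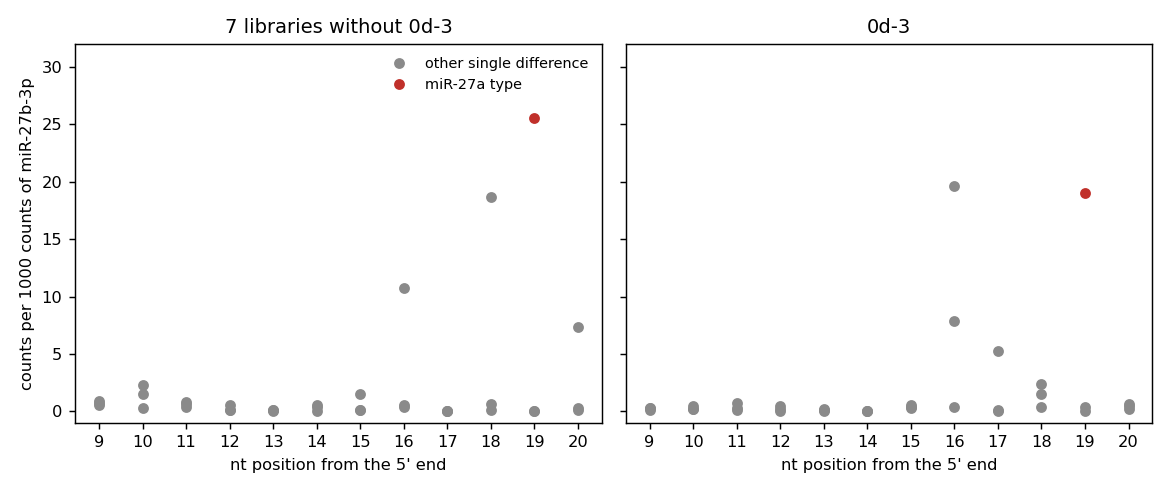
Counts of tags with each of the 36 possible single differences from miR-27b-3p, per 1000 counts of miR-27b-3p, by the position of the difference, for the sum of 7 libraries on the left and 0d-3 on the right. Each point is 1 difference, and the miR-27a type is in red. A few differences at nt 16 to 20 stand above the rest in both panels, and in 0d-3 a difference at nt 16 lies level with the miR-27a type.

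The 5 most counted other tags of the members, grouped by their first 20 nt, all lay at nt 16 to 18. T16G had 1427 counts in the 8 libraries (90.3% of them in 0d-3), T16C 526 (98.7%), T17G 346 (100%) and C18G 160 (99.4%). C18T had 339 counts, 29.5% of them in 0d-3. Per 1000 counts of miR-27b-3p, C18T was at 1.52 in 0d-3 and at 3.73 to 33.0 in the other libraries. T16G was at 19.6 in 0d-3, 29.6 at 28d and 1.24 to 9.14 in the other 6. The set of differences seen thus varied between 0d-3 and the rest. What made these differences was not tested.

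Many copies of miR-27b-3p stood behind a leader, where the count of free inserts did not include them. Behind a leader were 3419 copies in 0d-1, 5287 in 0d-2, 4 in 0d-3 and 801 at 3d, which were 61.2%, 62.5%, 0.00609% and 51.1% of all its copies. In mature milk there were 114 such copies at 7d, 2166 at 14d, 490 at 21d and 4327 at 28d, or 11.9%, 57.4%, 24.1% and 61.6%. In 5 libraries more than 50% of the copies stood behind a leader, and the libraries of 36-nt reads, 7d and 21d, had lower shares. All 7 libraries together held 16604 copies behind a leader against 12803 free ones.

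This share differed between miRNAs. In the 7 libraries miR-27b-3p had the third highest share of the 13, after miR-21-5p and let-7a-1-5p. miR-21-5p had from 35.4 to 92.5% of its copies behind a leader, and let-7a-1-5p from 17.7 to 72.2%. miR-148a-3p had 0.196 to 3.22%, and the median over the 13 miRNAs was 1.78 to 15.0%. miR-27b-3p accordingly took 7.87% ± 1.31 (SD, n = 7) of the copies of the 13 miRNAs behind leaders, against 0.803% ± 0.0661 of the free ones. The leading miRNA also changed, since miR-21-5p took 40.0 to 49.8% of the copies behind leaders and 0.797 to 2.37% of the free ones.

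**Figure D3:**
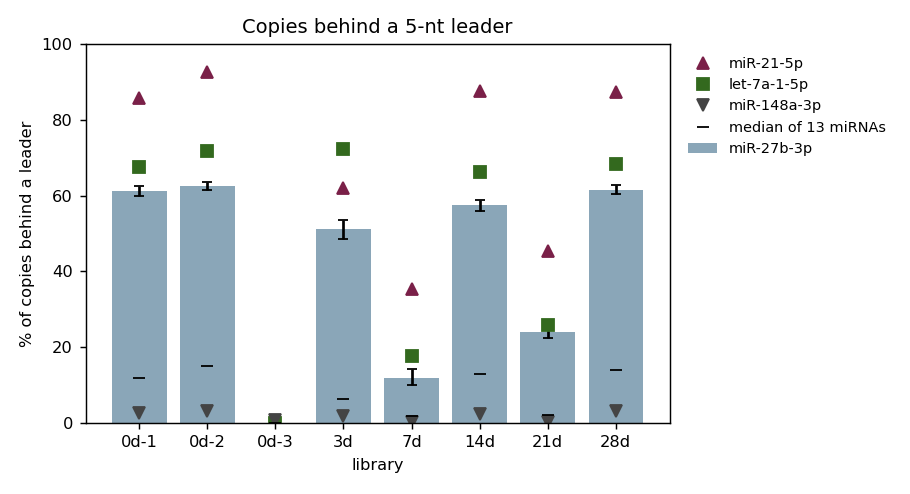
Percentage of the copies of a miRNA that stood behind a 5-nt leader in each library. Bars are miR-27b-3p with 95% Wilson intervals, symbols are miR-21-5p, let-7a-1-5p, miR-148a-3p and the median of 13 miRNAs. miR-27b-3p lies above the median in the 7 libraries other than 0d-3, from 11.9% at 7d to 62.5% in 0d-2, and near 0 in 0d-3.

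The miR-27a type was more frequent relative to miR-27b-3p behind leaders than among free copies. It had 1482 copies behind a leader in 0d-1, 2136 in 0d-2, 5 in 0d-3 and 209 at 3d, or 43.3, 40.4, 125 and 26.1 per 100 copies of miR-27b-3p. In mature milk it had 84 at 7d, 892 at 14d, 317 at 21d and 2162 at 28d, or 73.7, 41.2, 64.7 and 50.0 per 100. The value of 0d-3 rests on 5 copies against 4. In the other 7 libraries the ratio was 7.71 to 53.4 times that among free copies, lowest at 3d and highest in 0d-2. The mean log2 ratio of leader to free was 4.18 ± 0.97 (SD, n = 7), higher in 7 of 7 libraries, with p = 0.0156 in a two-sided exact sign-flip permutation test, the smallest that 7 libraries allow. With all 8 libraries it was 4.41 (exact permutation p = 0.00781). This comparison was chosen after its values were seen. Its libraries came from the same 3 sows, alone or pooled, so that these p-values do not measure a spread between animals.

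In the 7 libraries 7282 copies of the miR-27a type stood behind a leader and 327 were free, so that 95.7% were behind a leader. By library this share ran from 63.2% at 7d, 83.9% at 21d and 88.9% at 3d to 98.9% in 0d-2. With both kinds of copies added, the miR-27a type had 26.98 copies per 100 of miR-27b-3p in 0d-1, 25.5 in 0d-2, 1.91 in 0d-3 and 15.0 at 3d. In mature milk it had 13.9 at 7d, 24.9 at 14d, 18.6 at 21d and 32.1 at 28d. On this count 0d-1 and 0d-2 lay above 7d, 14d and 21d, whereas among free copies they lay below every later library. The difference of colostrum from mature milk was then -0.85 on the log2 scale (exact permutation p = 0.543). Without 0d-3 it was 0.030 (exact permutation p = 0.971), so that the sign seen among free copies did not hold in this sum. Whether copies behind leaders came from the same RNA as free ones was not tested, and both kinds differed in their leading miRNA. The sum is therefore a description only. Behind leaders T19C was the most counted of the 36 single differences in every library. At 28d its 2162 copies stood beside 167 of T16G, the next, and in 0d-2 its 2136 stood beside 100 of T16G. At 28d, the library with the most such copies, the 4 leaders had 43.0, 59.4, 47.4 and 25.3 copies of the miR-27a type per 100 of miR-27b-3p, and the order of the leaders changed between libraries. Each leader taken alone gave a mean log2 ratio of leader to free between 3.58 and 4.52. The lowest, for leader 4, the last listed, rests on 6 libraries. It leaves out 7d, which had 0 copies of the miR-27a type against 3 of miR-27b-3p behind that leader. Behind leaders 0d-1 lay above 14d, while 0d-2 and 3d lay below each library of mature milk.

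**Figure D4:**
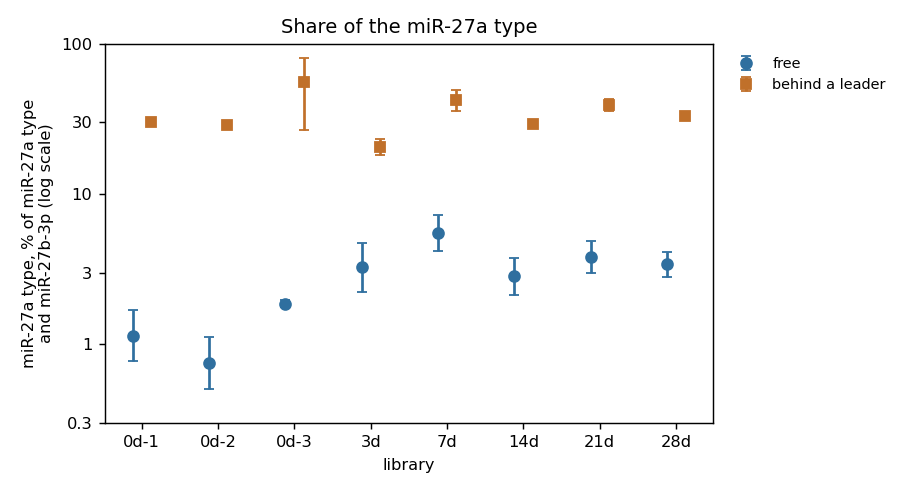
Counts of the miR-27a type as a percentage of the summed counts of the miR-27a type and miR-27b-3p in each library, on a log scale, for free copies (circles) and copies behind a leader (squares), with 95% Wilson intervals. In all 8 libraries the square lies above the circle, and the square of 0d-3 rests on 9 copies.

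Among tags that matched nt 1 to 20, the 3′ ends of miR-27b-3p were uniform. Tags of 18 or 19 nt that shared nt 1 to 18 were outside this match. They had 63 counts at 28d, 191 in 0d-3 and 2 to 22 in the other libraries. Free tags of 21 nt, the length of the listed sequence, made up 91.0% ± 2.49 (SD, n = 8), from 85.5% in 0d-3 to 93.5% at 7d. Tags of 20 nt made up 2.03% ± 0.651 and tags of 22 nt 5.46% ± 2.16. Tags longer than 21 nt made up 7.34% in 0d-1, 5.33% in 0d-2, 13.4% in 0d-3 and 5.99% at 3d. In mature milk they made up 4.52% at 7d, 5.16% at 14d, 5.82% at 21d and 8.22% at 28d. 0d-3 was the high library and the groups overlapped. Colostrum had 8.02% ± 3.69 and mature milk 5.93% ± 1.62 (SD, n = 4 each), a difference of 2.09 percentage points (exact permutation p = 0.4, two-sided, adjusted p = 0.6). Without 0d-3 colostrum had 6.22% ± 1.03 (SD, n = 3) and the difference was 0.288 percentage points (exact permutation p = 0.8), so that most of it came from this library.

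The ends of the free miR-27a type were less uniform. Its tags of 20 nt made up 34.1% ± 9.35 (SD, n = 8), from 24.5% in 0d-3 to 49.0% at 7d, and its tags of 21 nt 53.4% ± 8.39. In each of the 8 libraries its share of 20-nt tags was above that of miR-27b-3p, which was 1.14 to 3.04%. Outside 0d-3 these shares rest on 24 to 95 counts of the miR-27a type in a library.

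Copies of miR-27b-3p behind leaders had more varied 3′ ends. In the 7 libraries 20-nt copies of miR-27b-3p made up 21.7% ± 5.14 (SD, n = 7) behind leaders, from 17.1% at 3d to 31.6% at 7d, against 2.16% ± 0.585 of free copies. Copies of 21 nt made up 66.5% ± 1.41 against 91.8% ± 1.19. For the miR-27a type, 20-nt copies made up 45.5% ± 8.89 (SD, n = 7) behind leaders against 35.5% ± 9.19 of free copies. Its 21-nt copies made up 42.0% ± 6.12 against 53.6% ± 9.04. In 0d-1 and 14d its 20-nt share hardly differed, at 40.5% against 40.0% and 42.2% against 42.6%. Copies of miR-27b-3p over 21 nt were also more frequent behind leaders on average, at 11.8% ± 5.59 against 6.05% ± 1.30 of free copies, but not at 7d, where they made up 2.63% against 4.52%. For the miR-27a type, copies over 21 nt made up 12.4% ± 3.53 behind leaders and 10.9% ± 8.39 of free copies. At 7d and 21d the 36-nt reads could not show a leader followed by more than 23 nt and the matched part of the adaptor.

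**Figure D5:**
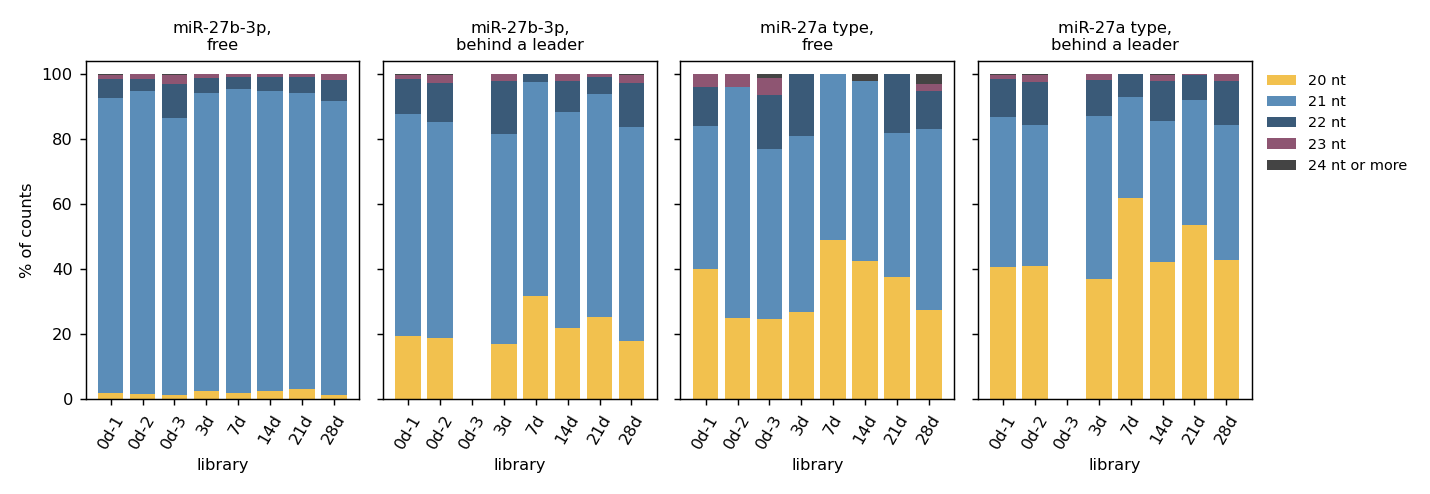
Length distribution in each library, as percentages of counts, of miR-27b-3p and the miR-27a type among free copies and among copies behind a leader (the leader not counted in the length). 0d-3 is left out of the panels of leader copies, where it had 4 and 5 copies. The 21-nt tag makes up at least 85.5% of free miR-27b-3p in every library, and the share of 20 nt is larger in each of the other 3 panels.

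The last bases also differed between the miRNAs. At nt 21, miR-27b-3p had C in 97.9% of its tags of at least that length in 0d-3 and in 91.3 to 93.7% in the other 7 libraries. A at nt 21 made up 1.79% in 0d-3 and 5.93 to 7.41% in the other 7 libraries, which did not overlap with it. In tags with C at nt 21 that went on, nt 22 was A in 79.5% and T in 19.6% of counts in 0d-3, and A in 72.7 to 81.1% in the others. For the miR-27a type, nt 22 was T in 71.7% and A in 23.6% of 237 counts, 207 of which came from 0d-3. Its nt 21 was T in 15.4% of 941 counts in 0d-3, and the other libraries had 15 to 69 such counts each. Whether an added base was encoded in the hairpin was not determined, since hairpin sequences were not used here. The 5′ end was described with copies behind a leader left out. Between 96.6% (3d) and 99.4% (0d-3) of the copies that matched miR-27b-3p with a shift of at most 2 nt began at nt 1. Copies with 1 extra base at the 5′ end made up 0.489 to 2.89%, and shortened ones at most 0.252%.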

How the data were processed

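Per the labels and the study's methods, the authors sequenced exosomal small RNA on an Illumina Genome Analyzer II, combined identical reads and deposited 1 table of read sequences with raw counts per library. The deposited counts were not normalized, filtered or aligned, and the reads still carried the 3′ adaptor. Each read was cut where the first 8 nt of the adaptor matched exactly, and inserts of 18 to 26 nt were kept. The libraries held 14590531 to 28141425 reads. miRNA sequences came from a supplementary table of the study with 13 miRNAs. Copies behind a leader were counted in inserts of any length that the read could hold.

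Means of 4 libraries against 4 were compared with exact permutation tests, and p-values over the 3 comparisons were adjusted by Benjamini-Hochberg. The tests treat single-sow and pooled libraries of the same 3 sows as separate units. All units were fitted with edgeR (filterByExpr, TMM, quasi-likelihood test, threshold 0.05). The named items were miR-27b-3p, the miR-27a type, the 5 most counted other groups, the 3 nearest miRNAs and the farthest. Members and lists were chosen with earlier results of these data known. Alternatives were other adaptor matches, totals, matches, count minimums and normalizations, DESeq2 in place of edgeR, 40-nt reads alone and leaving out each library. The total without miR-148a-3p, the addition of copies behind leaders, the leader comparison and some settings without 0d-3 were added after seeing the data. The code was tested on simulated data. Software comprised DESeq2 1.42.0, limma 3.58.1 and edgeR 4.0.16 in R 4.3.3, and scipy 1.17.1, numpy 2.4.6 and matplotlib 3.10.9 in Python 3.11.15.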

Additional observations from a re-analysis of the deposited data

Results flagged for a closer look

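In groups of 4 libraries, 1 library lay far from the others in 4 of 18 sets of values by Dixon's criterion, which chance meets in about 1 in 20. Of these, 3 came from 0d-3 in colostrum. Its miR-27b-3p level was 4720 CPM of all inserts of 18 to 26 nt and 4725 CPM of those without a leader, and its share of the 13 miRNAs was 2.19%. The other was 3d in colostrum, where miR-27b-3p took 2.47% of the 12 miRNAs without miR-148a-3p. The 3 flags of 0d-3 share 1 count of miR-27b-3p set over different totals. The sets are thus not independent, and the number flagged cannot be set against that rate of chance.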

How the results depend on the processing

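The log2 ratio of miR-27b-3p levels, colostrum to mature milk, kept its direction in 20 of 26 alternatives. It passed the threshold in none, but 13 of these had too few libraries to pass it (3 against 4 allow no p below 0.0571). It ranged from -0.55 to 1.18 as each library was left out, the lowest being without 0d-3. It was -0.20 in 40-nt reads without 0d-3, and -0.028 and -0.098 without 0d-3 with inserts without a leader and with the 13 miRNAs as the total. With the 12 miRNAs as the total it was -0.20, and -0.18 without 0d-3. It was larger, at 3.68, with all reads as the total, at 2.77 with leader copies added to these, and at 1.97 with TMM sizes. All of these values include 0d-3. In CPM of all reads, colostrum had 969 with 0d-3 and 91.1 ± 49.1 (SD, n = 3) without it. Mature milk had 75.7 ± 34.0 (SD, n = 4), so that most of the difference on this total came from 0d-3. The ratios with leader copies added and with TMM sizes were not computed without 0d-3. The difference in tags over 21 nt turned to -0.47 percentage points in 40-nt reads without 0d-3 and kept its direction in the other 14 alternatives, but fell from 2.09 to 0.288 without 0d-3. The difference in the miR-27a to miR-27b-3p ratio kept its direction in 14 of 15 alternatives, of which 4 could have passed the threshold and did not. With leader copies added it was -0.85, and 0.030 without 0d-3. The leader comparison kept its direction in 12 of 12. Every library that entered showed that direction, so each p was the smallest its number of libraries allows. With leader 4 alone, 7d did not enter, since it had 0 copies of the miR-27a type against 3 of miR-27b-3p behind that leader. Units called numbered 5 in 40-nt reads without 0d-3, 13 with DESeq2 and 2 with no filter on low counts, and 0 in the other 15 alternatives. In edgeR, miR-27b-3p ranged from -0.37 to 2.33 and the miR-27a type from -1.45 to 1.26 as each library was left out. The latter was -0.67 in 40-nt reads without 0d-3, -0.59 with library-size normalization (miR-27b-3p 0.60) and -1.09 with leader units and 0d-3 left out. miR-27b-3p stayed slightly higher in colostrum in 40-nt reads without 0d-3, at 0.19, and with leader units and 0d-3 left out, at 0.11. In each case the cause was not tested. No paired analysis was possible because replicates exist at 0 days alone. The ratio with tags of more than 10 counts was not computed, since 0d-1 held 0 such tags of the miR-27a type. With 1 library at each later stage, differences between stages cannot be told apart from differences between libraries, and 24 to 95 free counts of the miR-27a type outside 0d-3 limit its ends and ratios.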
